A study of Mus musculus with 12 samples.

Results

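The long genes of mouse chromosome 18 were followed from one end of the chromosome to the other in the IgG control libraries of a chromatin immunoprecipitation study of vasopressin action. Members were the RefSeq transcript intervals on chromosome 18 of build mm10 that were 20 kb or longer and had 2 or more exon blocks, leaving out Aqp4 and Nedd4l. Of 793 intervals on the chromosome, 309 fell outside the length and block limits and 2 Nedd4l intervals were left out. The remaining 482 intervals carried 341 gene names (1 interval had none), and they were set against 13978 autosomal intervals that met the same limits and 33062 intervals in all. Members began at position 3266354 and ended at position 90543267. Their lengths ran from 20.054 to 1097.438 kb, with a median of 62.735 kb. Many are transcript variants of a gene: the 482 intervals had 410 distinct spans and merged into 280 non-overlapping loci, and 36 of them belonged to the clustered protocadherins. Overlapping intervals counted the same reads, so members are not independent of each other.

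The cells were mpkCCD clone 11, a transformed mouse line of renal collecting duct principal cells that was grown to a confluent layer on permeable supports. One group was kept with 0.1 nM dDAVP, a vasopressin analog selective for the V2 receptor, throughout culture, and the other with its vehicle. All cells were kept in serum-free medium before harvest. Cross-linked, sheared chromatin was precipitated with IgG, with 3 libraries in each group, and the 6 libraries made with an antibody against Polr2a were not analysed here. Experiments 1 and 2 of a group differed by about the sampling noise (chi-square per degree of freedom of 1.02 for dDAVP and 1.01 for vehicle) and were counted as 1 sample, which left n = 2 in each group. The labels do not say whether the experiments were separate cultures, so the spread behind each p-value may be technical. The line is 1 clone, and its karyotype was not measured here. IgG reads do not report expression, so the cell type could not be checked against its markers.

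A non-specific IgG has no intended target in chromatin, so its reads serve as a background: they follow the amount of DNA of a region in the sheared material, how well that DNA survives library construction and how much of it can be mapped. Chromosome 18 of the mouse carries few genes for its length, among them the urea transporter genes of the renal medulla, several SMAD genes of the TGF-β pathway, the tumour suppressor Apc, the desmosomal cadherins and the protocadherin clusters of the nervous system.

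Reads over all intervals came to 12632322 to 13403860 in the dDAVP libraries and 10588927 to 19748658 in the vehicle libraries. The median member held 279.5 to 542.5 reads, depending on the library, and 478 of 482 members held at least 40 reads in every library. The library from dDAVP experiment 3 stood apart: across members its read density followed GC content with a Spearman correlation of 0.84, against 0.04 and 0.11 in the other dDAVP libraries and -0.21, -0.20 and -0.54 in the vehicle libraries. These correlations run over 482 overlapping intervals of 1 library each. Results below are therefore also given without that library, or over intervals of like GC content.

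Chromosome 18 lay low in all 6 libraries, by about a like amount. The measure was the relative density, the reads per kb of an interval divided by the median of autosomal intervals in the same of 10 size classes, so that 1 is the level of a typical autosomal interval. The chromosome was chosen on this value, which is given as a description with no test. The median member stood at 0.677, 0.672 and 0.630 in dDAVP experiments 1, 2 and 3. It stood at 0.676, 0.677 and 0.704 in vehicle experiments 1, 2 and 3, and values per library are given in this order throughout. Group means were 0.653 ± 0.031 (SD, n = 2) for dDAVP and 0.690 ± 0.020 (SD, n = 2) for vehicle.

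The low level was shared by nearly every member in 5 of the 6 libraries. Below 1 were 480, 480 and 354 of 482 members in the dDAVP libraries. The counts were 477, 477 and 467 in the vehicle libraries. The central 80% of members ran from 0.555 to 0.835 in dDAVP experiment 1 and from 0.559 to 0.831 in vehicle experiment 1. In dDAVP experiment 3 the same range was 0.227 to 1.53, and single members went from 0.0640 to 2.12. Members under 0.8 in each of the 6 libraries numbered 193 (40%), where 7.33% of all autosomal intervals were. Those under 1 in each library numbered 337 (69.9%), against a background of 20.5%, and no member was over 1 in each library, where 19.9% of autosomal intervals were. Without dDAVP experiment 3, 464 members (96.3%) were under 1 in each of 5 libraries, with 36.5% of autosomal intervals there. These shares describe the choice of the chromosome.

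**Figure D1:**
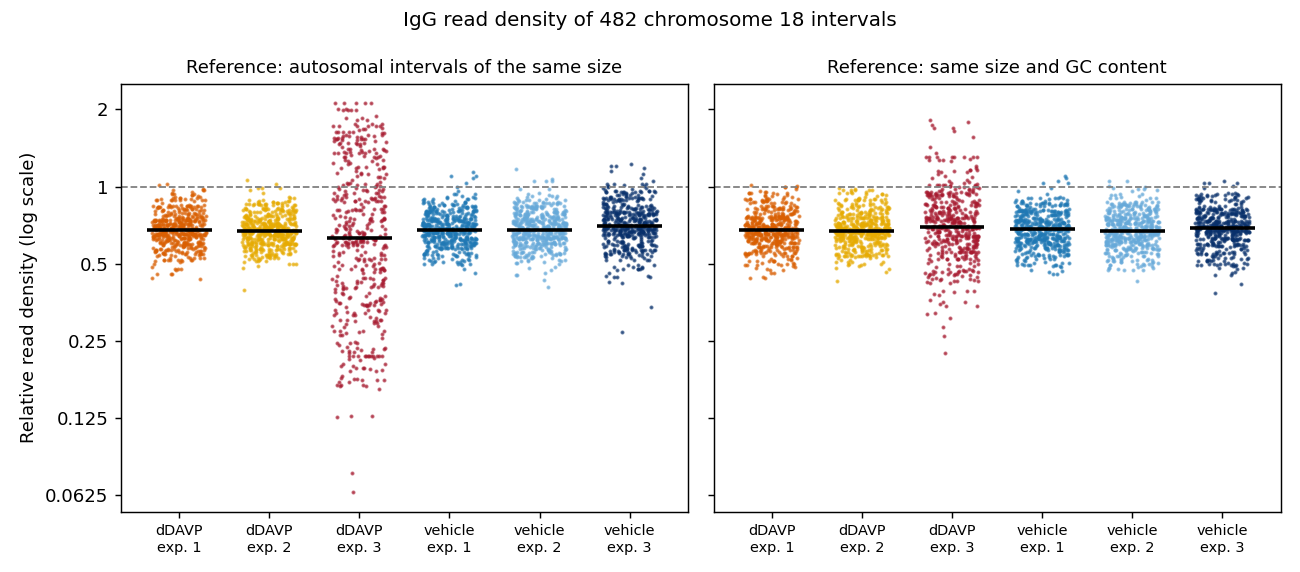
Relative density (reads per kb over the median of autosomal intervals of the same size, log axis) of 482 members in each of the 6 IgG libraries, with the median of each library. The medians lie between 0.630 and 0.704, and the members of dDAVP experiment 3 spread much wider than those of the other libraries.

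Genes differ in base composition, and the members' GC content had a median of 42.6%. Each member was therefore also compared with autosomal intervals of both its size class and its GC class (10 classes), which is called the GC-matched relative density. The chromosome then stood at 0.678, 0.670 and 0.698 in the dDAVP libraries, and at 0.680, 0.673 and 0.691 in the vehicle libraries. Below 1 were 480, 482 and 431 members of the dDAVP libraries and 477, 479 and 477 of the vehicle libraries. The central 80% of members in dDAVP experiment 3 narrowed to 0.467 to 1.00. Under 1 in each of the 6 libraries were 426 members (88.4%), where 32% of autosomal intervals were, and 262 (54.4%) were under 0.8 in each, where 12.2% were. The Spearman correlation with GC content that remained was 0.17 in dDAVP experiment 3 and between -0.04 and 0.06 in the other 5 libraries.

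The deposited fraction of bases covered by at least 1 read, which the choice of the chromosome did not use but which comes from the same reads, was also low. Relative to autosomal intervals of the same size it was 0.718, 0.714 and 0.717 for dDAVP, and 0.713, 0.702 and 0.765 for vehicle. Short intervals, which the length limit kept out, gave a like level. For the 185 chromosome 18 intervals of 2 to 20 kb that overlapped no member, the median relative density, over classes of their own size, was 0.695, 0.688 and 0.546 in the dDAVP libraries and 0.710, 0.702 and 0.750 in the vehicle libraries.

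Whether all of the chromosome or a segment of it lay low was asked in bins of 5 Mb, with members placed by their midpoint. Of 19 bins, 18 held at least 3 members and were ranked, and the last held 1. A bin counted as low when the median of its members was under 0.8 in every library. By size classes, 11 of 18 bins were low, where 37 of 470 bins on the other autosomes (7.87%) were. Without dDAVP experiment 3 the count was 15 of 18, against 62 of 470 (13.2%). With GC-matched values 14 of 18 bins were low in the 6 libraries, against 64 of 470 (13.6%), and all 18 were below 1 in each of them. On the other autosomes the count below 1 differed widely. It was 0 on chromosomes 3, 10, 12, 15, 16, 17 and 19, and it took in all 31 bins of chromosome 4 and all 29 of chromosome 7. The count depended on the measure: by the fraction of bases covered 6 of 18 were low, against 20 of 470 (4.26%), and with members of 50 kb or more 7 of 18 were. No bin was above 1 in every library by either measure.

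Low values ran from end to end. Averaged over the 6 libraries, the GC-matched ranked bins ran from 0.600 to 0.789. The proximal end, from 0 to 5 Mb, holds the cAMP-responsive repressor and activator gene Crem and the kinase gene Map3k8, and had relative densities of 0.652, 0.599 and 0.218 in dDAVP and 0.676, 0.731 and 0.795 in vehicle. The distal bin from 85 to 90 Mb, with Neto1, Cd226, Rttn, Dok6 and Socs6, had 0.694, 0.700 and 0.263 in the dDAVP libraries and 0.795, 0.762 and 0.899 in the vehicle libraries. Both ends are poor in GC, at 38.2% and 36.9%, and in both dDAVP experiment 3 was the lowest library and vehicle experiment 3 the highest. In some bins richer in GC than these ends, dDAVP experiment 3 was instead the highest library. From 80 to 85 Mb, where the median member had 49.2% GC, dDAVP experiment 3 stood at 1.354 and the other 5 libraries between 0.641 and 0.716. From 35 to 40 Mb, the bin of the protocadherins (45.2% GC), it stood at 1.34 and the others between 0.630 and 0.721. From 60 to 65 Mb (46.2% GC) it was also the highest, at 0.943, with the others between 0.621 and 0.671. The same held by smaller gaps from 65 to 70 Mb (42.4% GC), at 0.743 against 0.661 to 0.720. From 75 to 80 Mb (44.4% GC) it had 0.808 against 0.658 to 0.685.

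**Figure D2:**
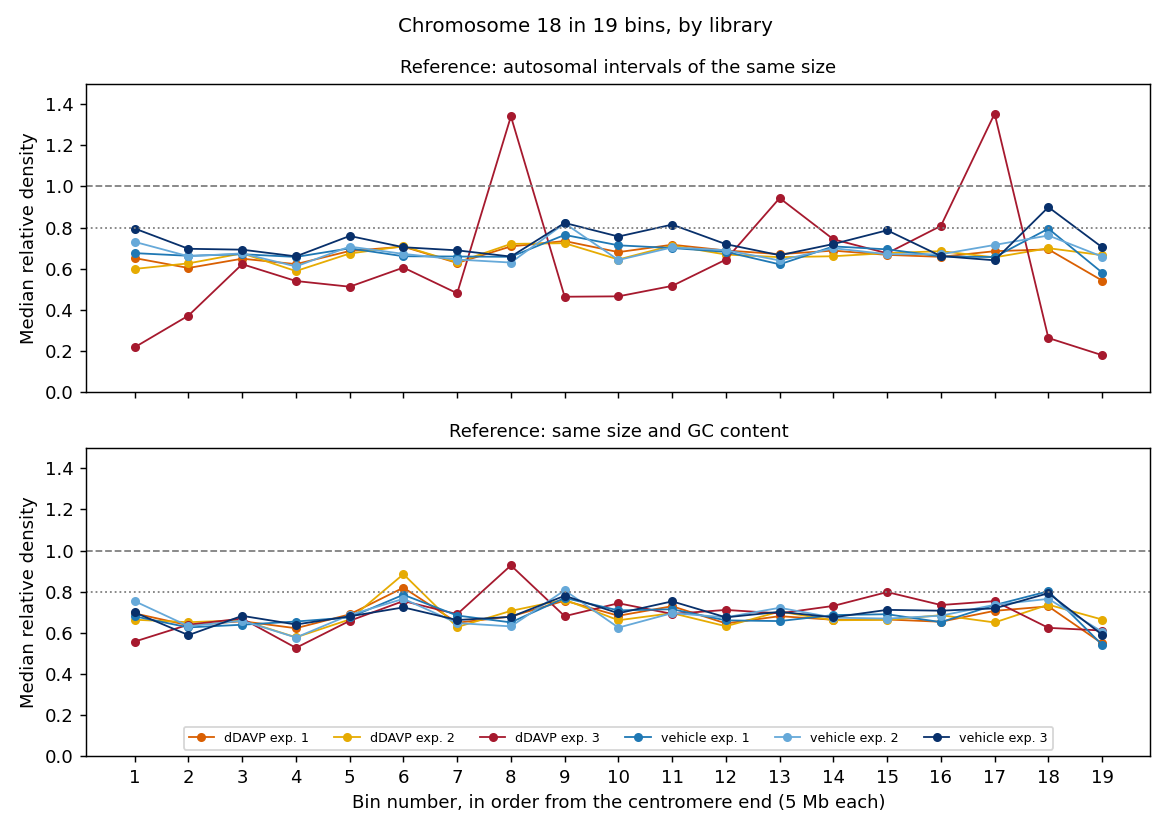
Median relative density of members in 5-Mb bins along chromosome 18, by library, over size classes (upper panel) and over size and GC classes (lower panel). By size and GC classes all 18 bins with 3 or more members lie below 1 in each library, as do the ranked bins of chromosomes 4 and 7 (not shown). Over size classes dDAVP experiment 3 rises above 1 in 2 bins.

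GC-matched, libraries lay closer together in each of these bins. They ran from 0.558 to 0.754 over the 6 libraries from 0 to 5 Mb, from 0.651 to 0.754 from 80 to 85 Mb and from 0.624 to 0.802 from 85 to 90 Mb. In the protocadherin bin they ran from 0.631 to 0.928, with dDAVP experiment 3 the highest. From 60 to 65 Mb the range was 0.657 to 0.722. It was 0.661 to 0.731 from 65 to 70 Mb and 0.652 to 0.735 from 75 to 80 Mb. The largest step between neighbouring bins was 0.110 to 0.257, depending on the library, and it fell at 4 different places in the 6 libraries. Finer steps were looked at with running medians over 5 neighbouring loci. Of 276 such windows, none was above 1 in the 5 libraries other than dDAVP experiment 3, where they ran from 0.505 to 0.863, and 1 was above 1 in dDAVP experiment 3. Over 9 loci none of 272 windows was above 1 in any library, and none of the 280 loci was above 1 in every library. The 273 members of the proximal part and the 209 of the distal part, divided at the middle of the members' span, had GC-matched levels of 0.682 ± 0.009 and 0.699 ± 0.038 (SD, n = 2) in dDAVP. In vehicle these levels were 0.677 ± 0.011 and 0.697 ± 0.011 (SD, n = 2).

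Other autosomes showed both patterns, a chromosome low throughout and one low in a segment. By GC-matched values over the 6 libraries, chromosome 18 had the second lowest level of 19 autosomes, 0.682, between chromosome 4 at 0.664 and chromosome 7 at 0.683. Of the 64 low bins on the other autosomes, 53 were on chromosomes 4 and 7, where 28 of 31 and 25 of 29 bins were low. The mean over the libraries was under 0.8 in 18 of 18 bins on chromosome 18, in 31 of 31 on chromosome 4 and in 27 of 29 on chromosome 7. Chromosome 13 differed from these: its 11 bins from 65 to 120 Mb ran from 0.644 to 0.765, and its other 13 bins from 0.923 to 1.04. The SD of log2 level over bins was 0.26 on chromosome 13, the largest of the 19 autosomes, and 0.09 on chromosome 18, where it ranked ninth from the smallest. These ranks depended on the setting. By size classes without dDAVP experiment 3, chromosome 7 was lower than chromosome 18, at 0.672 against 0.681. The SD of chromosome 18 over bins was then 0.08, at rank 2 from the smallest. Chromosome 13 was singled out after these values were seen.

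**Figure D3:**
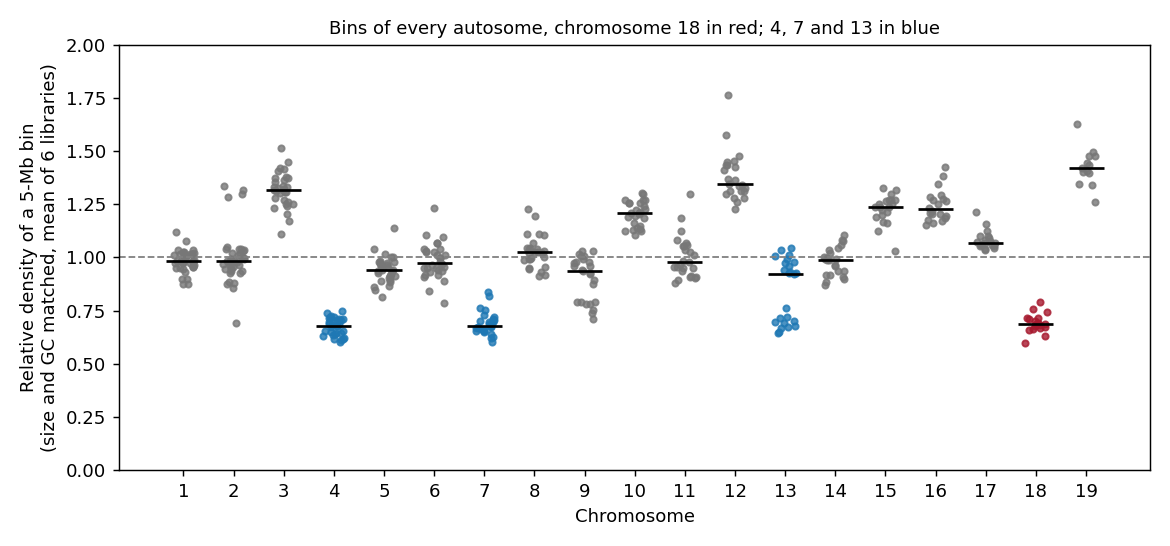
GC-matched relative density of each 5-Mb bin with 3 or more intervals on 19 autosomes, as the mean of the 6 libraries, with a bar at the median bin of each chromosome. Chromosome 18 (red) and chromosome 4 lie under 0.8 in every ranked bin, and chromosome 13 falls into 2 groups of bins.

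The members varied among themselves by more than counting alone gives. With GC matched, the robust SD over members was 13.3% to 16.4% of the median in the 5 libraries other than dDAVP experiment 3 and 27.9% in that library, while the counting error of the median member was 4.29% to 5.98%. The order of members was largely shared by those 5 libraries, with Spearman correlations of 0.720 to 0.868 between pairs of libraries, and less with dDAVP experiment 3, at 0.309 to 0.436. These points share reads where intervals overlap. Of the other features of a member, the mean GC-matched level of those 5 libraries had a Spearman correlation of 0.08 with length, -0.15 with exon blocks per kb and 0.04 with the share of repeat-masked bases.

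Genes of 6 roles were picked to show the chromosome, with earlier results of these data known, and 42 of 44 listed genes were members. Over size classes, 31 of the 42 were under 1 in each of the 6 libraries and 42 in each of the 5 without dDAVP experiment 3. By the same rules 20.5% and 36.5% of autosomal intervals were, and 69.9% and 96.3% of all members. GC-matched, 40 of 42 were under 1 in each of the 6 libraries, and the other two, Smad4 and Zeb1, were above 1 in dDAVP experiment 3 alone. By that rule 32% of autosomal intervals and 88.4% of all members were under 1.

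Among 12 kidney, cAMP and hormone genes, the median of the group means was 0.702 for dDAVP and 0.685 for vehicle. Slc14a2 (78146144 to 78596950), which encodes the vasopressin-regulated UT-A urea transporters of the inner medullary collecting duct, had relative densities of 0.738, 0.765 and 0.798 in the dDAVP libraries and 0.713, 0.746 and 0.739 in the vehicle libraries. Its neighbour Slc14a1 (78100091 to 78142119), the UT-B urea transporter of red cells and descending vasa recta, had 0.716, 0.717 and 1.19 in the dDAVP libraries and 0.690, 0.765 and 0.695 in the vehicle libraries. For Slc14a2 all 6 libraries lay close together, and for Slc14a1 dDAVP experiment 3 was high and the other 5 overlapped. GC-matched, that library came to 0.752 for Slc14a1, against 0.679 to 0.751 in the others.

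Myo5b (74442619 to 74771477), a myosin motor of recycling endosomes that takes part in the apical traffic of aquaporin-2, had 0.551, 0.568 and 1.30 in the dDAVP libraries and 0.592, 0.590 and 0.551 in the vehicle libraries. Slc12a2 (57878678 to 57946821), the sodium-potassium-chloride cotransporter NKCC1, went the other way in dDAVP experiment 3, with 0.613, 0.583 and 0.345 against 0.695, 0.694 and 0.772 in vehicle. The glucocorticoid receptor gene Nr3c1 (39410545 to 39487245) had 0.538, 0.537 and 0.214 in dDAVP and 0.633, 0.539 and 0.612 in vehicle. For all 3 genes the library from dDAVP experiment 3 lay outside the range of the other 5, high at Myo5b with 46.2% GC, and low at Slc12a2 with 39.1% and Nr3c1 with 38.1%. GC-matched, it came to 0.744, 0.666 and 0.538 for Myo5b, Slc12a2 and Nr3c1. The other 5 libraries then had 0.556 to 0.631, 0.602 to 0.702 and 0.557 to 0.651. So dDAVP experiment 3 stayed outside their range at Myo5b and Nr3c1, and inside it at Slc12a2. Crem (3266354 to 3327591) had GC-matched values of 0.695, 0.664 and 0.558 in dDAVP and 0.680, 0.754 and 0.699 in vehicle. The other listed genes of this kind included the calmodulin-dependent kinase genes Camk4 and Camk2a, the phosphatase subunit gene Ppp2r2b, the phosphodiesterase gene Pde6a and the flippase gene Atp8b1. GC-matched group means of the 12 genes ran from 0.512 to 0.807 in dDAVP and from 0.529 to 0.770 in vehicle.

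The 5 TGF-β and epithelial state genes held both a low and a high member. Smad7 (75367365 to 75395934), the inhibitory SMAD, is short for a member and held 77 to 220 reads, and its GC-matched values were 0.491, 0.534 and 0.390 in dDAVP and 0.490, 0.668 and 0.385 in vehicle. Smad2 (76241701 to 76311747), a receptor-regulated SMAD, had 0.594, 0.507 and 0.379 in dDAVP and 0.541, 0.522 and 0.497 in vehicle. Smad4 (73639013 to 73703741), the common partner, had 0.665, 0.689 and 1.14 in dDAVP and 0.715, 0.644 and 0.668 in vehicle, so that dDAVP experiment 3 was low at Smad2 and high at Smad4. Zeb1 (5591860 to 5775468), a repressor of epithelial genes, stood at 0.886, 0.920 and 1.01 in dDAVP and 0.858, 0.886 and 0.925 in vehicle, close to the autosomal level in every library. The endodermal factor gene Gata6 was in between, with GC-matched values of 0.623 to 0.880.

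The 8 growth control genes had group medians of 0.636 for dDAVP and 0.625 for vehicle. Apc (34220984 to 34322190), the scaffold of the β-catenin destruction complex, had 0.586, 0.600 and 0.520 in the dDAVP libraries and 0.541, 0.594 and 0.587 in the vehicle libraries. Dcc (71253632 to 72351069), the netrin receptor gene and the longest member, had 0.662, 0.667 and 0.330 in dDAVP and 0.699, 0.671 and 0.834 in vehicle. The neighbouring receptor kinase genes Pdgfrb and Csf1r, receptors of PDGF and of macrophage colony-stimulating factor, were both over 1 in dDAVP experiment 3, at 1.58 and 1.40, and had 0.529 to 0.708 and 0.536 to 0.776 in the other libraries. GC-matched, dDAVP experiment 3 came to 0.698 and 0.694 for Pdgfrb and Csf1r. It was then the lowest library at both, with 0.711 to 0.859 and 0.714 to 0.867 in the others.

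The 7 adhesion and matrix genes, 6 neural and muscle genes and 4 nuclear and transcription genes had vehicle medians of 0.673, 0.709 and 0.652. Their dDAVP medians were 0.558, 0.659 and 0.908. The nuclear genes Nfatc1 and Ctdp1 passed 1 in the dDAVP mean through dDAVP experiment 3 alone, at 2.00 and 1.64. GC-matched, the medians of the lists were 0.626, 0.673 and 0.647 in dDAVP and 0.659, 0.682 and 0.636 in vehicle. Ctnna1 (35118912 to 35254775), which encodes α-catenin, was among the lower members, with GC-matched values of 0.561, 0.534 and 0.565 in dDAVP and 0.508, 0.507 and 0.460 in vehicle. Kcnn2 (45560154 to 45685883), a calcium-activated potassium channel gene, was among the higher, with 0.934, 0.865 and 0.471 in dDAVP and 0.816, 0.919 and 0.942 in vehicle. At Kcnn2 dDAVP experiment 3 lay well under the other 5 libraries. Tcf4, a basic helix-loop-helix factor gene, ran from 0.536 to 0.776 and the mechanosensitive channel gene Piezo2 from 0.636 to 0.705 over the 6 libraries. The desmosomal cadherin genes Dsc2 and Dsg2 ran from 0.535 to 0.764 and from 0.594 to 0.729.

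**Figure D4:**
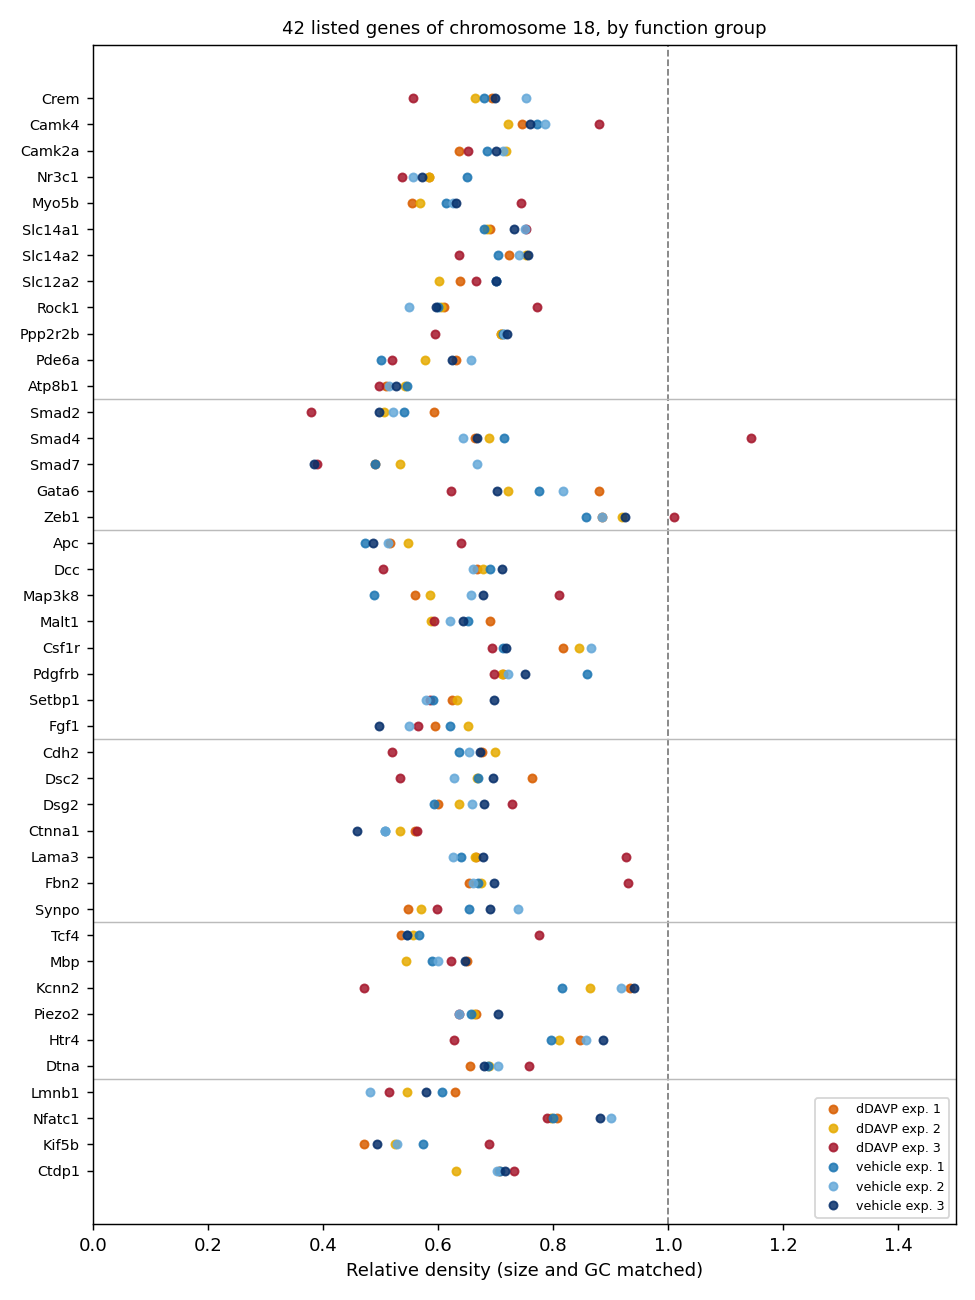
GC-matched relative density of the 42 listed genes in each of the 6 IgG libraries, 1 gene to a line, with lines between the 6 role groups and a dashed line at 1. Of the 42 genes 40 lie left of 1 in every library, and Smad4 and Zeb1 pass it in dDAVP experiment 3.

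At the members with the highest and lowest mean relative density, dDAVP experiment 3 was the farthest library. Among 338 genes with 40 or more reads in every library, the highest were Pard6g, Celf4, Nfatc1, Loxhd1 and Rnf165, all of 46.8% to 50.9% GC. Celf4 (25477620 to 25753983), an RNA-binding protein gene, had 0.707, 0.709 and 2.12 in the dDAVP libraries and 0.657, 0.629 and 0.547 in the vehicle libraries. Nfatc1 (80606205 to 80713071), a calcineurin-dependent factor gene, had 0.685, 0.666 and 2.00 in dDAVP and 0.640, 0.727 and 0.586 in vehicle. The lowest were Ube2d2a, Wac, Etf1, Nr3c1 and Txnl1, of 36.7% to 42.7% GC. Ube2d2a (35771559 to 35807172), a ubiquitin-conjugating enzyme gene, had 0.526, 0.549 and 0.178 in dDAVP and 0.507, 0.563 and 0.570 in vehicle. So at both extremes the other 5 libraries stayed between 0.5 and 0.9. The length limit cut through like values. Over classes of intervals of 10 kb or more, Mro and Mex3c, just under 20 kb, had 0.636 to 1.00 and 0.143 to 0.636 over the libraries, and Cdc23 and Isoc1, just over it, had 0.449 to 0.747 and 0.589 to 0.770.

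The clustered protocadherins, cell-surface cadherins from which neurons choose by promoter, have variable first exons joined to shared last exons, so their intervals are nested and count the same reads. The 14 Pcdha intervals (36930285 to 37187660) had 2 distinct ends, and the 22 Pcdhg intervals (37661945 to 37841872) had 3. Each family is described as 1 locus, and no Pcdhb interval was a member. Pcdha medians were 0.792, 0.778 and 1.12 in dDAVP and 0.808, 0.789 and 0.892 in vehicle. Pcdhg medians were 0.705, 0.720 and 1.52 in dDAVP and 0.657, 0.623 and 0.653 in vehicle. The other 26 members of the same bin had 0.600, 0.659 and 0.762 in dDAVP and 0.611, 0.580 and 0.613 in vehicle. Over size classes both families were thus higher than the rest of their bin in each library, and dDAVP experiment 3 was the highest library in all 3 sets.

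Matching for GC content brought dDAVP experiment 3 down at Pcdhg but up at Pcdha. The Pcdhg medians became 0.675, 0.706 and 0.931 in dDAVP and 0.629, 0.591 and 0.674 in vehicle. GC-matched medians of the whole bin were 0.680, 0.707 and 0.928 in dDAVP and 0.651, 0.631 and 0.678 in vehicle. These bin medians include the Pcdhg and Pcdha intervals themselves. GC-matched medians of the other members of the bin are not given here, so they cannot be set against Pcdhg. Pcdha medians became 0.795, 0.795 and 1.49 in dDAVP and 0.810, 0.778 and 0.797 in vehicle. The Pcdha intervals have a moderate mean GC content, with a median of 40.2%, but many short GC-rich stretches. The median share of an interval's 300-bp tiles that held 55% GC or more was 5.64%. It was 1.61% in the 173 other members of 39% to 43% GC, whose median in dDAVP experiment 3 was 0.691. In the Pcdhg intervals the median share was higher, 13.8%, and their median in that library was 0.931. Over all 482 members, GC-matched values of that library had a Spearman correlation of 0.37 with the share of such tiles. The part of these tiles in the Pcdha level was not tested.

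The members' level did not pass a test between dDAVP and vehicle. The dDAVP mean was lower by size classes, with a difference of -0.038 (two-sided exact permutation test p = 0.333, which is the smallest p that 2 samples against 2 allow). GC-matched, the difference had the other sign, 0.0023 (exact permutation p = 1), with group means of 0.686 ± 0.017 and 0.684 ± 0.010 (SD, n = 2).

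Tested interval by interval over 30912 intervals with edgeR's quasi-likelihood test and Benjamini-Hochberg adjustment at 0.05, 0 intervals (0%) were called, and 0 of 482 members were. At an unadjusted p under 0.05 edgeR had 236 intervals (0.763%) and 0 members, and DESeq2 had 1082 intervals and 1 member, with 0 called. The smallest adjusted p of a member was 0.619 by edgeR. The members with the smallest p by edgeR were 5 intervals of 4 genes: Pcdhgc5, Pcdhgc4, Camk2a (2 intervals with the same span) and Ndst1, a heparan sulfate sulfotransferase gene. Pcdhgc5 (37819546 to 37841872) held 130, 117 and 340 reads in the dDAVP libraries and 78, 74 and 130 reads in the vehicle libraries. Its relative densities over size classes, at 50.3% GC, were 0.758, 0.715 and 1.59 in dDAVP and 0.547, 0.545 and 0.569 in vehicle. The gene was picked for its small p, so this gap is no separate evidence, and how many intervals have such a gap was not counted. The edgeR log2 ratio of dDAVP to vehicle was 1.11 ± 0.49 (SE), with an edgeR p of 0.0667 and an adjusted p of 0.619. For Ndst1 (60685976 to 60713389) the log2 ratio was 1.246 ± 0.57 (SE) by edgeR, with the same adjusted p. Without dDAVP experiment 3 the log2 ratios of Pcdhgc5, Pcdhgc4, Camk2a and Ndst1 were 0.42, 0.36, 0.40 and 0.28.

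The direction of the members' log2 ratios followed their GC content. Of 482 members 142 had a ratio above 0 and 340 below it, so 29.5% were above 0 where 50.4% of all intervals were, and the median was -0.32 against 0.01 over all intervals. Of 116 members under 40% GC, 0 had a ratio above 0 and the median was -0.78. From 40% to 45% GC, 16 of 226 were above 0, with a median of -0.37. From 45% to 50% GC the count was 102 of 116, with a median of 0.34, and at 50% GC or more it was 24 of 24, with a median of 0.78. Shares of all intervals in these GC ranges are not given here. The read density of dDAVP experiment 3 followed GC content over all autosomal intervals as well (Spearman correlation 0.82). Whether the counts by GC range are particular to the members was not tested. The lowest ratio was that of Cd226 (89197427 to 89270327), a lymphocyte adhesion receptor gene, which held 427, 409 and 92 reads in the dDAVP libraries and 426, 414 and 857 in the vehicle libraries (log2 ratio -1.17 by edgeR, adjusted p = 0.619). Without dDAVP experiment 3, the median over all members was -0.09, and the medians of the same 4 GC ranges were -0.20, -0.09, 0.07 and 0.10. In that fit 150 of 482 members (31.1%) had a ratio above 0, where 49.8% of all intervals did. By GC range the counts were 2 of 116, 44 of 226, 81 of 116 and 23 of 24. Across the 482 members the log2 ratio had a Spearman correlation with GC content of 0.94, and of 0.76 without that library. Vehicle experiment 3 also followed GC content, in the opposite direction (Spearman correlation -0.54 over members). An effect of treatment and the GC dependence of single libraries of either group cannot be told apart with these samples.

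**Figure D5:**
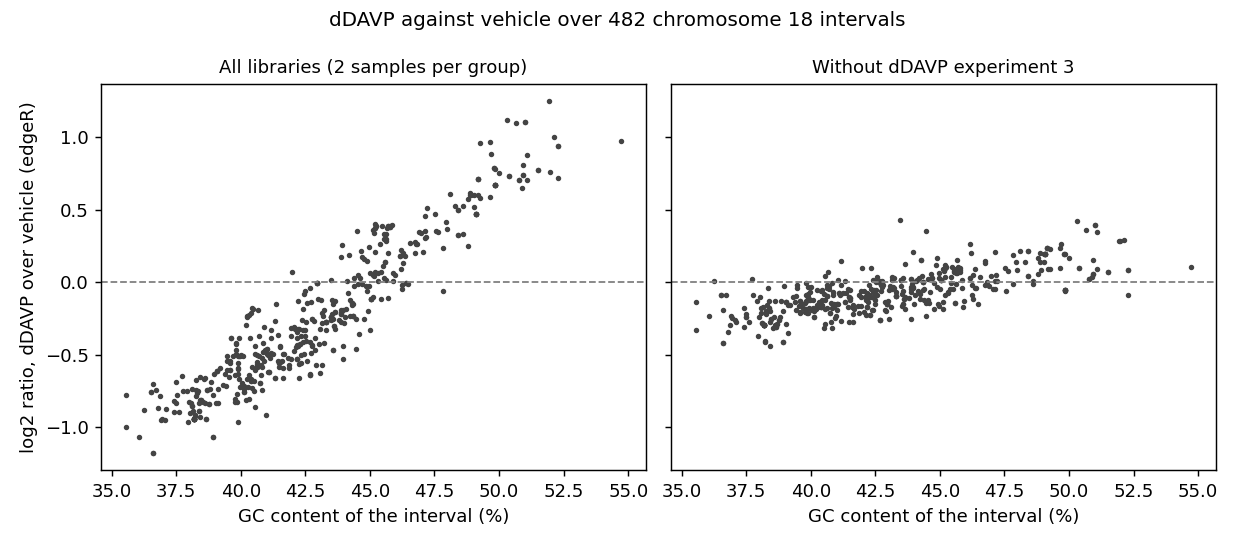
Log2 ratio of dDAVP to vehicle (edgeR) of each of the 482 members against GC content (%), with all libraries (left) and without dDAVP experiment 3 (right). The ratios climb with GC content in both panels, with a Spearman correlation of 0.94 on the left and 0.76 on the right, over a narrower range on the right.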

How the data were processed

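Per the labels' protocols, BWA placed the reads on mm10, and the submitters' processing notes also list SAMtools and bedtools. The deposited count of an interval is the number of reads that overlap a RefSeq transcript from start to end, and the deposited fraction is the share of its bases with at least 1 read, both per the file headers. Treatment of duplicate reads and any filter on mapping quality were not given in the sources used here. Strand was not used, so overlapping and antisense genes share reads, and near-identical copies may be uncertain.

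Members and gene lists were chosen with earlier results of these data known. Symbols came from a RefSeq table for 478 members and from GENCODE for 3. GC content and repeat masking were read with pysam 0.24.0 from GRCm38.p6, the assembly of mm10. Relative densities used 10 size classes and 10 GC classes of the 13978 autosomal intervals (Python 3.11.15, numpy 2.4.6, scipy 1.17.1, pandas 2.3.3). Libraries were compared in pairs by chi-square. For experiments 1 and 2 the chi-square per degree of freedom was 1.02 (dDAVP, chi-square p = 0.0353) and 1.01 (vehicle, p = 0.158), under the limit of 1.1, against 5.02 or more for other pairs within a group, so these libraries were summed or averaged as 1 sample.

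Genes named were a list by role, the 5 highest and 5 lowest by mean relative density with at least 40 reads in every library, the 5 members with the smallest edgeR p, the 2 intervals on each side of 20 kb and the clustered protocadherins. Kcnn2 and Ctnna1 were singled out of the list, and Cd226 outside it, after their values were seen. The comparison of dDAVP with vehicle used edgeR 4.0.16 in R 4.3.3 (TMM, filterByExpr), with DESeq2 1.42.0 as an alternative. On simulated data for this comparison with 30876 intervals tested, none of 67 intervals with a 2-fold change was recovered, 14 of 67 with a 4-fold change were, and so were 62 of 66 with an 8-fold change. There were 2 false calls. GC-matched values without dDAVP experiment 3, intervals of 2 to 20 kb, running medians, 300-bp tiles and chromosome 13 were chosen after seeing the data.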

Additional observations from a re-analysis of the deposited data

How the results depend on the processing

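With 2 samples in a group no difference between groups could pass an exact permutation test, and 2-fold changes were not recovered on simulated data, so a call of 0 does not show that intervals did not differ. The GC classes use an interval's mean GC content, and reads of overlapping intervals are shared. The dDAVP level of chromosome 18 was 0.686 with GC-matched classes, 0.725 as a mean over members and 0.717 by the fraction of bases covered. The vehicle level was 0.668 against autosomes without chromosomes 4, 7, 12, 18 and 19, and 0.736 by the fraction of bases covered. The difference of dDAVP from vehicle, -0.038, turned to 0.0023 with GC-matched classes and to 0.0198 as a mean over members (exact permutation p = 1 for both), and the cause was not tested. With the 6 libraries as separate samples it was -0.0259 (exact permutation p = 0.2). Bins counted as low numbered 7 of 18 with a minimum length of 50 kb, where fewer members enter, 6 of 18 by the fraction of bases covered, 23 of 39 with bins of 2 Mb and 6 of 9 with bins of 10 Mb. Leaving out each library in turn gave dDAVP levels of 0.651 to 0.675, vehicle levels of 0.676 to 0.691, differences of -0.0389 to -0.0158 and 11 to 15 low bins, the 15 without dDAVP experiment 3. Members called were 0 in every fit that left out 1 library.

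Whether experiment numbers pair the samples could not be told. Same-numbered libraries' deviations from their group means had correlations of -0.28, -0.29 and -0.49. Experiments 1 and 2 of a group were nearly alike, and their differently numbered pairs gave like values, -0.30 and -0.28. With the replicate block in edgeR 0 members were called, and 4 had an unadjusted p under 0.05, all lower in dDAVP. With the 6 libraries separate 0 were called by edgeR with the block and 0 without it. The log2 ratios of the 4 genes with the smallest p kept their sign in each of 11 alternatives. These genes were picked on the same libraries that the alternatives refit, so the kept sign is no separate evidence of a difference.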
